A study of Danio rerio with 40 samples.

Results

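Crystallins are the soluble proteins that fill the fibre cells of the eye lens, and their close packing makes the lens transparent and refractive. The alpha crystallins belong to the small heat shock proteins and act as chaperones, while the beta and gamma crystallins share a fold and form oligomers and monomers, respectively. The gamma-M crystallins are methionine-rich proteins of the dense fish lens. Fibre cells lose their nuclei as they mature, so crystallin mRNA comes from lens epithelium and from young fibres near the surface.

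The genes described here are those whose symbol begins with crya, cryb or cryg, without the crybg genes and the cryptochromes. They number 41 of the 20454 genes in the authors' deposited tables, with 40 among the 19429 genes of the eye table and 18 among the 19300 genes of the brain table. By symbol, the eye table lists 3 alpha, 7 beta-A, 6 beta-B, 2 gamma-N, 4 gamma-S and 18 gamma-M genes. A further 16 symbols of the RefSeq gene table (assembly GRCz12tu) fit the rule and were not analysed here, all of them among the 21 crygm2d genes. Brain and whole-eye RNA of adult zebrafish was sequenced from wh5, a cyp1b1 knockout line, and from wild-type (WT) fish. Each organ has 10 WT and 10 wh5 samples, 5 per sex, which makes 40 samples in 8 groups. The sources used here do not give age within adulthood, the WT strain or the nature of the wh5 allele. Cyp1b1 is a cytochrome P450 enzyme of steroid and retinoid oxidation whose human gene is linked to congenital glaucoma.

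The data are the authors' comparison of wh5 with WT in each organ. Values of single samples are not part of them, so the depth of each library is unknown and sexes and replicates could not be set side by side. The table names give the direction, wh5 over WT, and each error is the authors' standard error (SE). Titles and source fields disagree on the organ in all 40 samples, and titles were used. The rod transducin gene gnat1 had a base mean of 109610 for eye and 600.4 for brain, and the synaptic gene snap25a 15644 and 100890, in the authors' deposited tables. The targeted transcript was not called lower in either organ. The authors' deposited tables put the log2 fold change of cyp1b1 at -0.17 (SE 0.14) in brain and at 0.54 (SE 0.14) in eye, where it was called higher (adjusted p = 0.016). With an empirical null, which centres and scales the test statistics by their median and spread over all genes, the eye call was lost (adjusted p = 0.464). The level of cyp1b1 therefore does not check the genotype labels. All 41 crystallin genes were matched to the RefSeq table by NCBI Gene ID, and none of them lies on the chromosome of cyp1b1 there.

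Crystallin transcripts marked the eye table. The base mean averages normalised counts over both genotypes. It is not corrected for transcript length and is therefore not compared between genes as a level. Crystallins made up 4.58% of the summed base means of all genes in the authors' deposited table for eye and 0.00326% in that for brain. In the eye the gamma-S genes held 1.98%, the gamma-M genes 1.08%, the beta-B genes 0.948%, the beta-A genes 0.354% and the alpha genes 0.162% of the total. These shares are likewise not corrected for transcript length. The gamma-S gene crygs1 (NCBI Gene 503587) had a base mean of 382830 in the authors' deposited table for eye. That was 1.51% of the total and most of the gamma-S share. The beta-B gene crybb2 (NCBI Gene 553182) had a base mean of 160490 there. The gamma-M genes crygm3 and crygm6 had base means of 99701 and 64320 in the same authors' deposited table. In all, 30 of the 40 genes listed for eye had a base mean of at least 1000.

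The 17 genes listed in both tables formed 2 sets by where their transcripts were found. For 13 of them the brain base mean was between 0.00181% and 4.11% of the eye base mean, with a median of 0.124%. The extremes were crygs1, with a base mean of 6.94 in brain, and cryabb, with 447.4 in brain against 10872 in eye in the authors' deposited tables. Zebrafish has a pair of alpha B genes, of which cryaba is known as lens-restricted and cryabb as more widely expressed. The table for brain lists cryabb and neither cryaba nor cryaa. The other set was 4 crygm2d genes, whose brain base means were 54.1% to 158% of their eye base means. In the authors' deposited tables crygm2d8 had base means of 13.3 in brain and 8.40 in eye, and crygm2d6 had 10.6 and 6.72. Thus each of these tandem gamma-M genes had a low base mean in both organs, of 4.77 to 13.3. The lowest base mean of any gene was 1.96 in brain and 1.98 in eye. The tables were normalised separately, the sources used here do not say how reads shared by near-identical crygm2d copies were counted, and values of single crygm2d genes are uncertain.

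**Figure D1:**
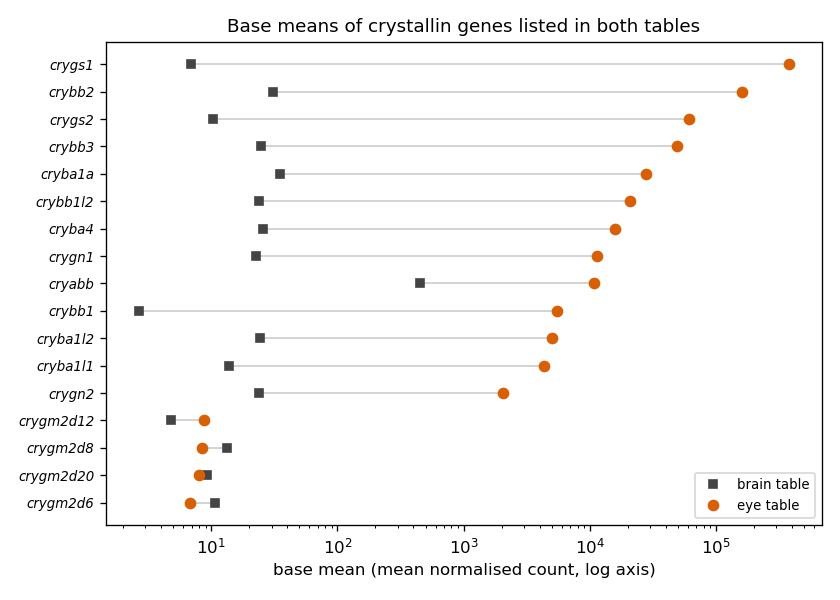
Base means (mean normalised counts, log axis) of the 17 crystallin genes listed in both tables, with squares for brain and circles for eye. For the 13 upper genes the brain value is 0.00181% (crygs1) to 4.11% (cryabb) of the eye value, whereas the 4 crygm2d genes lie close together at 4.77 to 13.3.

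In the eye, no crystallin gene was called different between wh5 and WT. Of the 40 genes, 27 had a higher and 13 a lower point estimate in wh5, and 0 passed in the authors' deposited table, where a call is a DESeq2 adjusted p (Benjamini-Hochberg) below 0.05. Over all 19429 genes 1.67% were called. At an unadjusted p below 0.05 there were also 0 of 40 crystallins, against 14.2% of all genes. The median log2 fold change of the 40 genes was 0.09, beside 0.01 over all genes, and the estimates ran from -1.07 to 0.59. All but 2 of the 40 test statistics (log2 fold change over SE) were smaller than 1 in size, which was so for 55.4% of all genes. In whole organs, a different share of lens cells and a different amount of transcript per lens cell cannot be told apart.

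The alpha crystallin genes had point estimates near 0. In the authors' deposited table for eye, cryaa (NCBI Gene 100000769) was at a log2 fold change of -0.02, with an SE of 0.86 and an adjusted p of 0.997. The values for the alpha B genes in the authors' deposited table were 0.09 (SE 0.68) for cryaba and -0.16 (SE 0.62) for cryabb. The 95% intervals of all 3 contain 0, and that of cryaa reaches from a fold of 0.305 to one of 3.19.

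Among the beta crystallins, the acidic beta-A genes all had point estimates above 0, and the basic beta-B genes lay on both sides. The 7 beta-A estimates in the authors' deposited table for eye ran from 0.01 for cryba1l2 to 0.29 (SE 0.52) for cryba2b. Between them were cryba1a at 0.05 (SE 0.85), cryba4 at 0.06, cryba1l1 at 0.07, cryba2a at 0.24 and cryba1b at 0.26 (SE 0.81), again from the authors' deposited table. Of the 6 beta-B genes, crybb2 had the highest estimate at 0.23 (SE 0.60) and crybb1l1 the lowest at -0.16 (SE 0.83) in the authors' deposited table. Remaining beta-B estimates in the authors' deposited table were 0.02 for crybb3, -0.01 for crybb1l2, -0.06 for crybb1 and -0.09 for crybb1l3. The shifts of all 13 beta genes were smaller than their SEs. In the RefSeq gene order, 4 pairs of a beta-A and a beta-B gene are direct neighbours, namely cryba1l2 with crybb1l2, crybb1 with cryba4, crybb1l1 with cryba1l1 and cryba1a with crybb1l3. The 8 estimates of these pairs lay between -0.16 and 0.07, while crybb2, crybb3, cryba1b, cryba2a and cryba2b have no crystallin gene next to them.

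The gamma crystallins had mostly positive estimates, with the same lack of calls. Of all 24 gamma genes, 17 had an estimate above 0 and 7 below, with a median of 0.16, and 51.9% of all eye genes had an estimate above 0. Of the 15 gamma genes that reach a base mean of 1000, 14 were above 0, with a median of 0.19, beside 46.5% above 0 and a median of -0.01 over the 4484 genes that do so. The exception was crygm4 at -0.09 (SE 0.62) in the authors' deposited table, a gene named after its value was seen. The limit of 1000 was also chosen after the values were seen, and crygm4 alone of the 7 gamma genes below 0 reaches it. The 15 alpha and beta genes of that abundance had a median of 0.02, with 9 positive and 6 negative estimates. In the authors' deposited table for eye the highest abundant gamma-M estimates were 0.47 (SE 0.54, adjusted p = 0.754) for crygm2c, 0.44 (SE 0.50) for crygm6 and 0.42 (SE 0.54) for crygm2b. Next to crygm2b in the RefSeq order, crygm2a was at 0.33, and crygm3 was at 0.31 in the authors' deposited table. Apart from crygm6, these genes lie in a run of gamma genes that ends with crygs4 and crygs3. That run is on the chromosome that holds 20 of the 41 crystallin genes. It also holds crygmxl1, crygm2d8, crygm2d20 and crygm2f, whose estimates were below 0, so the genes of the run had mixed signs. The base means of these genes were 153.2, 8.40, 7.92 and 7.59 in the authors' deposited table for eye. Members of the run below a base mean of 1000 had both signs, and those that reach it were above 0. The 4 gamma-S genes lay at 0.16 (SE 0.39) for crygs1, 0.18 for crygs4, 0.25 for crygs2 and 0.33 for crygs3 in the authors' deposited table, the last named after its value was seen. The gamma-N genes, which combine features of the beta and gamma families, lay at 0.14 (SE 0.54) for crygn1 and 0.17 (SE 0.58) for crygn2 in the authors' deposited table. Since genes of 1 organ share their samples, the common sign of the gamma estimates was not tested and is a description.

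The lowest and the highest estimates in the eye belonged to gamma-M genes of few counts. For crygmxl2 (NCBI Gene 554132) the authors' deposited table gives -1.07 (SE 0.61) with an adjusted p of 0.424 and a base mean of 38.95. Its neighbour crygmx, named after its value was seen, was at 0.10 (SE 0.66) and a base mean of 17490 in the authors' deposited table. The highest estimate was that of crygm2d6 at 0.59 (SE 0.55), at a base mean of 6.72, in the authors' deposited table. Of the other low gamma-M genes, crygm2d8, crygm2f, crygm2d20 and crygm2d12 had estimates of -0.32, -0.24, -0.16 and 0.03 in the authors' deposited table. There crygmxl1 had one of -0.09. The other 4 gamma-M genes lay between -0.04 and 0.25. Among these 4 was crygm2e, named after its value was seen, at 0.25 and a base mean of 9.32.

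**Figure D2:**
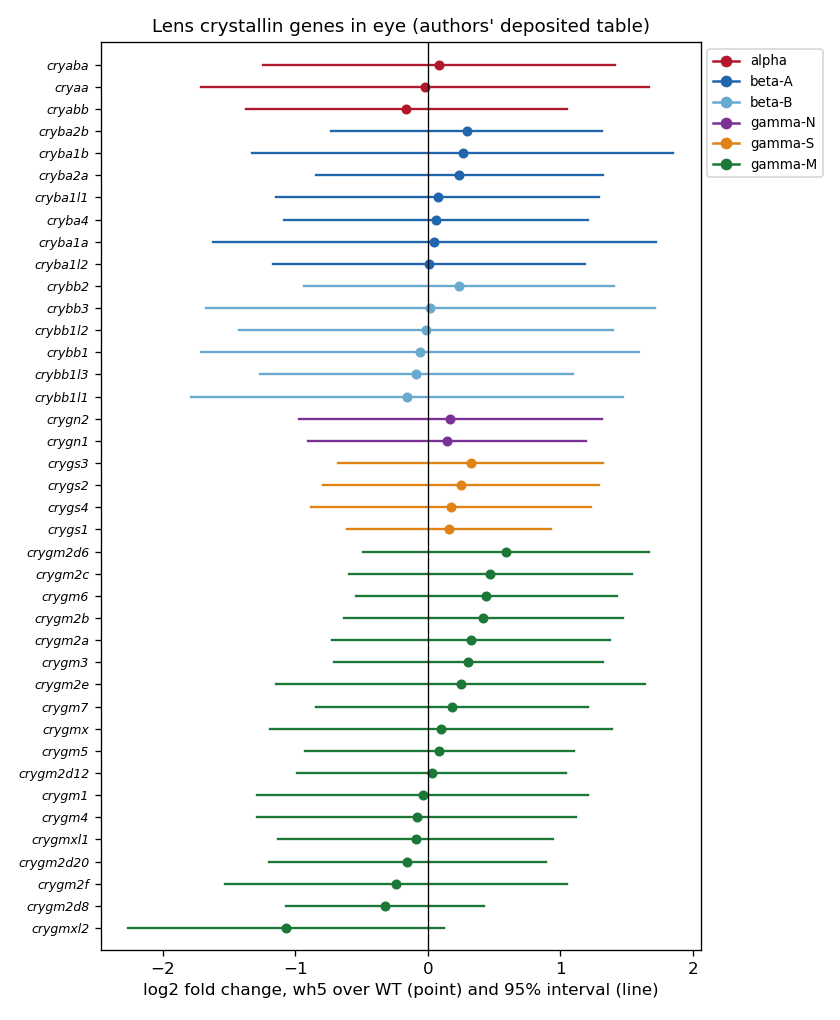
Log2 fold changes of the 40 crystallin genes in the eye (points, wh5 over WT) with 95% intervals (lines, 1.96 SEs to either side), ordered by family. The estimates lie between -1.07 and 0.59, and every interval crosses 0.

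The intervals of the crystallins in the eye were wide. The median SE of the 40 genes was 0.59 on the log2 scale, beside 0.14 over all genes. The 30 crystallins that reach a base mean of 1000 also had a median SE of 0.59, against 0.10 over the 4484 genes of that abundance. Among these 4484 genes 74, or 1.65%, had an SE of at least 0.5, and 29 of the 74 were crystallins. The crystallin below that value was crygs1, at 0.39. From a base mean of 10000 upwards, 26 of 338 genes had so large an SE, of which 21 were crystallins. These limits were chosen after the values were seen. The largest crystallin SEs in the authors' deposited table were 0.86 for cryaa and crybb3, 0.85 for cryba1a, 0.84 for crybb1 and 0.83 for crybb1l1. By family, the median SE was 0.78 for beta-B, 0.68 for alpha, 0.60 for beta-A, 0.56 for gamma-N, 0.54 for gamma-M and 0.52 for gamma-S genes. The SE reflects how far samples of a genotype differed, and the spread of single samples could not be examined.

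The width sets what could be detected. The smallest test statistic of any called eye gene was 3.34 in size, so that a crystallin would have needed a log2 fold change of between 1.27 (crygm2d8) and 2.89 (cryaa) to be called, with a median of 1.96 over the 40 genes. The median over all eye genes was 0.48. The 95% interval lay within a 2-fold change in either direction for 1 of the 40 crystallins, crygs1, with bounds of 0.654 and 1.91, and for 85.0% of all genes. It lay within a 4-fold change for 39 of the 40, with crygmxl2 as the exception. An estimate of a 2-fold change would not have been called for any single crystallin, while 4-fold changes lie outside the intervals of 39 genes.

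**Figure D3:**
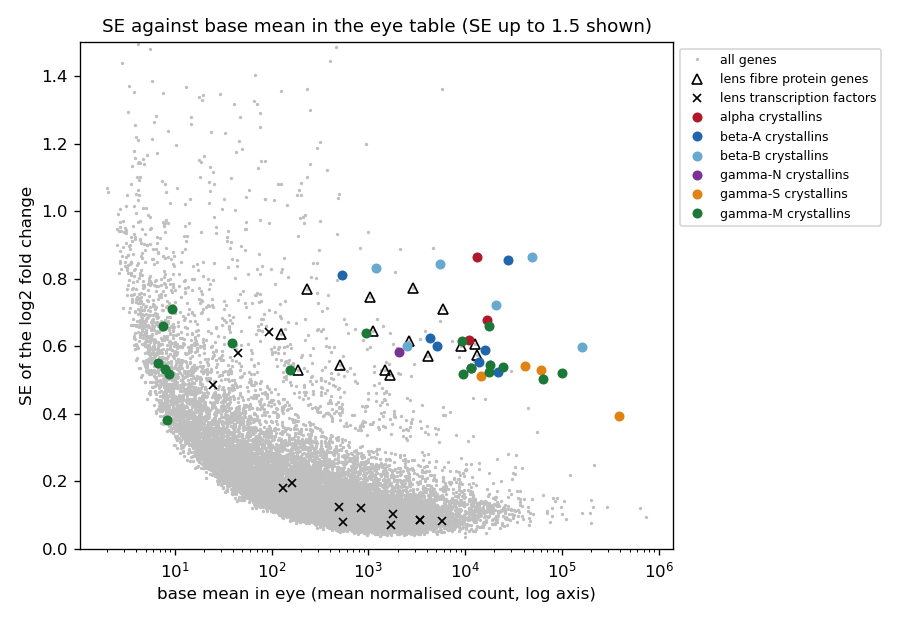
SE of the log2 fold change against the base mean (log axis) in the eye, for all genes (grey), crystallins (coloured by family), other lens fibre protein genes (triangles) and lens transcription factor genes (crosses). Genes with an SE above 1.5 fall outside the frame. At base means of at least 1000 the crystallins lie between 0.39 and 0.86, while the median of all such genes is 0.10.

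Other genes of the lens were read from a list of 43, of which 37 are listed for eye and 30 for brain. By the authors' DESeq2 calls, 0 passed in either organ, beside 1.67% of all genes in eye and 0.736% in brain. At an unadjusted p below 0.05 there were 0 of 37 in eye, against 14.2% of all genes, and 2 of 30 in brain, against 8.62%. The 15 genes of lens fibre proteins had a median SE of 0.61 in eye, close to that of the crystallins, and a median log2 fold change of 0.03. They include the lens water channel gene mipa, at -0.08 (SE 0.60) in the authors' deposited table for eye, and the beaded filament gene bfsp2, at -0.06 (SE 0.57). The lengsin gene lgsn was at 0.27 (SE 0.61), the galectin-related gene grifin at 0.21 (SE 0.71) and the lens water channel gene mipb at -0.14 (SE 0.77) in the authors' deposited table for eye. All 11 of the fibre protein genes that reach a base mean of 1000 had an SE of at least 0.5. The 13 genes of transcription factors that act in lens development, most of which also act in the retina or brain, had a median SE of 0.12 and a median log2 fold change of -0.03. Among them pax6a was at -0.02 (SE 0.08) and prox1a at -0.14 (SE 0.10), whereas hsf4, a regulator of lens fibre genes, was at 0.29 (SE 0.64) in the authors' deposited table for eye. The other 9 genes of the list in eye had a median SE of 0.33, from 0.17 to 0.47, and a median log2 fold change of 0.01. The list was split by role after the values were seen.

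Median SEs were smaller for markers of other eye cells. The median SE in eye was 0.13 for 10 rod genes, 0.10 for 9 cone genes, 0.12 for 6 pigment epithelium genes, 0.22 for 11 surface epithelium genes, 0.25 for 7 muscle genes and 0.23 for 5 haemoglobin and blood genes. Surface epithelium markers had a median log2 fold change of 0.44, with 10 of 11 estimates above 0, beside 51.9% of all eye genes. Among them 1 was called, icn2, beside 1.67% of all eye genes. The authors' deposited table puts icn2 at 0.79 (SE 0.21) with an adjusted p of 0.0192. Its call was lost with the empirical null (adjusted p = 0.494). Whether the surface epithelium estimates and the positive gamma crystallin estimates are related was not tested.

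In the brain, no crystallin gene was called either. Of the 18 genes listed, 12 had a higher and 6 a lower point estimate in wh5, and 0 were called by the authors' deposited table (DESeq2), where 0.736% of all 19300 genes were called. At an unadjusted p below 0.05 there was 1 of 18, against 8.62% of all genes. The median log2 fold change was 0.19, or 0.29 without the gamma-M genes, beside -0.0014 over all genes, and 17 of the 18 genes had a base mean below 50. The gene with the unadjusted p below 0.05 was crygn2 (NCBI Gene 445034), which the authors' deposited table for brain puts at -0.73 (SE 0.29) on the log2 scale, with an adjusted p of 0.337 and a base mean of 24.0. The gamma-N gene crygn1 was at 0.38 (SE 0.48) in the same authors' deposited table, on the other side of 0.

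The alpha B gene cryabb was the crystallin measured most precisely in brain. Its log2 fold change in the authors' deposited table was 0.21 (SE 0.13, adjusted p = 0.693), with a 95% interval of the fold from 0.973 to 1.37. Of the 8 beta genes in brain 7 had an estimate above 0, with a median of 0.28. In the authors' deposited table for brain these were led by crybb1 at 1.36 (SE 0.97), at a base mean of 2.65, followed by crybb1l2 at 0.45 (SE 0.37) and cryba1l2 at 0.39 (SE 0.28). The values for cryba1a, crybb3, cryba4 and crybb2 in the authors' deposited table for brain were 0.29, 0.27, 0.17 and 0.04, and cryba1l1 was at -0.13. Of the gamma-S genes, crygs1 was at 1.51 (SE 0.79, adjusted p = 0.598) and crygs2 at 0.31 (SE 0.41) in the authors' deposited table for brain. The 5 crygm2d genes ranged from -0.26 for crygm2d8 to 0.02 for crygm2d6, with crygm2d14, which is in the brain table alone, at -0.10 (SE 0.73) in the authors' deposited table.

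**Figure D4:**
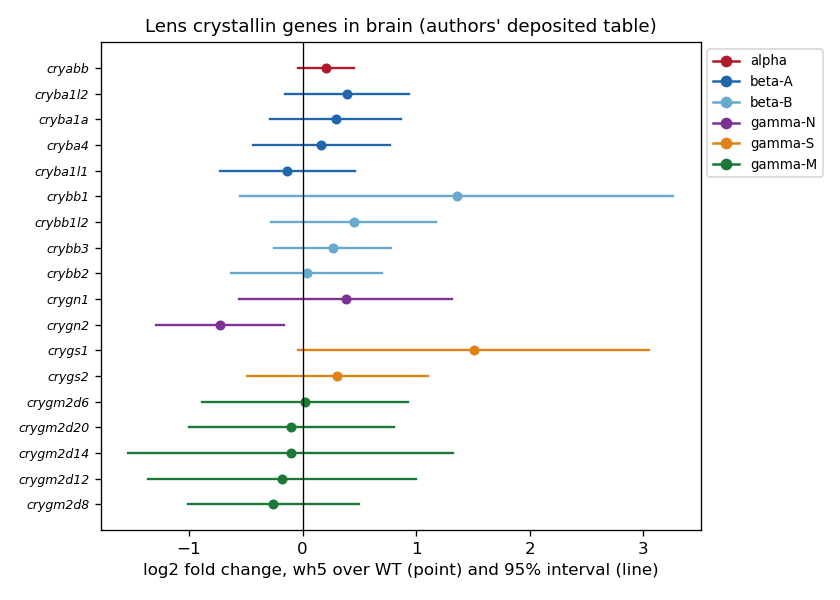
Log2 fold changes of the 18 crystallin genes in the brain (points, wh5 over WT) with 95% intervals (lines), ordered by family. The interval of crygn2 lies below 0, with an adjusted p of 0.337, and the other 17 intervals cross 0.

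Photoreceptor genes in the same brain samples had other values than the crystallins. All 9 measured cone markers had negative estimates in brain, with a median log2 fold change of -3.05 and a median SE of 1.03. Of the cone markers 4 were called (arr3b, grk7a, opn1sw2 and gnat2), beside 0.736% of all brain genes. All 10 rod markers were negative, with a median of -1.59, a median SE of 0.72 and none called. Over all brain genes the median SE was 0.13, so the photoreceptor estimates were imprecise. With the empirical null the 4 cone calls were lost, at adjusted p values of 0.064, 0.0711, 0.119 and 0.171 in the order named. These 19 photoreceptor genes had brain base means of 0.0632% to 3.84% of their eye base means, with a median of 0.298%, a range that overlaps that of the 13 lens-abundant crystallins. Of those 13 crystallins, 11 had a brain estimate above 0, with crygn2 and cryba1l1 below. Over all brain genes 49.5% were above 0, and the common sign of the 11 was not tested. The 6 pineal markers in brain had a median log2 fold change of -0.11, from -2.42 to 0.40. Of these, 2 were above 0 and 4 below, with 0 called. The lowest was gngt1 (SE 0.94), with base means of 195.9 in brain and 49366 in eye in the authors' deposited tables. Its base mean was thus far higher in eye than in brain, as for the photoreceptor genes. Without gngt1 the pineal markers ran from -0.53 for aanat2 to 0.40 for exorh in the authors' deposited table for brain. The difference between crystallins and photoreceptor genes was not tested, nor was the source of the photoreceptor transcripts in brain.

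The effect of wh5 was not shown to differ between organs for any of the 17 crystallins in both tables. The difference of the log2 fold changes was divided by the SE of that difference and tested two-sided against a normal distribution, with Benjamini-Hochberg adjustment over 18275 genes. That SE treats the organs as independent, although brain and eye titles share sex, genotype and replicate numbers and may share fish, which the sources used here do not state. No crystallin passed this test, and 0.0821% of all genes did. At an unadjusted p below 0.05 there were 0 of 17 crystallins and 8.19% of all genes. The statistic was largest in size for crygs1, where the eye value was lower than the brain value. The log2 difference, eye minus brain, was -1.35 (SE 0.88, 95% interval -3.08 to 0.38, adjusted p = 0.711). For crygn2 the eye value was higher by 0.90 (SE 0.65, 95% interval -0.38 to 2.17). The statistic was smallest in size for crygs2, with a difference of -0.06 (SE 0.67, 95% interval -1.36 to 1.25). These intervals leave room for differences of more than 2-fold between organs.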

How the data were processed

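Poly(A) RNA was sequenced, per the labels, in 40 samples. Per the submitters' processing notes, the authors used DESeq2 1.32.0, STAR and fastp with build GRCz11. The sources used here give no model formula, counting method or filter. The deposited columns are, per the file headers, a log2 fold change and the SE of that log2 value, a base mean (a signal that averages normalised counts), a test statistic (a score), and p-values before and after adjustment. Logarithms are taken as base 2, the convention of the tool the authors used. The deposited adjusted p equals the Benjamini-Hochberg value to within a relative difference of 0.00453. No count model could be fitted to these tables, so the deposited calls (adjusted p below 0.05) were used. Depth per library is unknown, and precision is given by the SE. Intervals are 95% normal intervals of 1.96 SEs to either side. The test of the organ difference uses a two-sided normal p and was tested on simulated data. The simulation drew independent normal errors with the deposited SEs, as the test assumes, so it could not examine organs that share fish. It could likewise not show whether the deposited SEs are too small. The spread used by the empirical null was 1.10 for brain and 1.32 for eye statistics, larger than that of a standard normal distribution.

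The crystallin genes and the gene lists were chosen with earlier results of these data known. Named were all called, alpha, beta and gamma-N members, the 5 gamma-S or gamma-M genes of highest base mean in eye, the 5 highest and 5 lowest estimates of these per organ, the 3 smallest SEs per organ, and the largest and smallest organ difference. Whether samples of a group came from separate fish is not given, so the SEs and p-values may not reflect variation between fish. Alternatives were an empirical null, a base mean of at least 50, a threshold of 0.1 and smaller sets of members. Computations ran in Python 3.11.15 (scipy 1.17.1, numpy 2.4.6, pandas 2.3.3) with figures from matplotlib 3.10.9. Gene order came from RefSeq (GRCz12tu), a build other than the authors', so no coordinate is given. No sequence is shown.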

Additional observations from a re-analysis of the deposited data

How the results depend on the processing

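In each organ 0 crystallins and 0 other lens genes were called, and 0 crystallins had a called organ difference. These counts stayed at 0 with an empirical null, with only genes of a base mean of at least 50, and with a threshold of 0.1. The empirical null raised the adjusted p of every crystallin in each organ and for the organ difference. It was thus the stricter test, and its counts of 0 add little. Of the crystallins, the base mean limit left cryabb alone in brain and for the organ difference. Those checks therefore covered that gene only. With an empirical null the lowest adjusted p of a named crystallin was 0.654 in brain and 0.968 in eye. The median log2 fold change in eye was 0.10 over genes reaching a base mean of 50, the same without alpha crystallins, and 0.08 without gamma-M genes. In brain, where it was 0.19 over all 18 genes, it was 0.17 without alpha crystallins and 0.29 without gamma-M genes, and the base mean limit left cryabb alone, at 0.21. No paired analysis was possible because the tables hold no value of a single sample, and for the same reason no replicate was left out. The wide SEs in eye and the low counts in brain limit what a lack of calls can say.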
